A study of Mus musculus with 5 samples.

Results

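The genes described here are Myc with its partner Max and its relatives Mycl and Mycn, subunits of RNA polymerase I, and the nucleolar factors that process ribosomal RNA. They come from a list of 45 named genes, each read from a probe set of the array annotated with exactly 1 gene symbol. Where a gene had several such probe sets, the one with the highest mean was used. This gave 43 measured genes among 19938 on the array. Ppan sat on a probe set annotated with several symbols, and Noc2l was not analysed here. The samples were 5 cultures of mouse pancreatic cells, each on 1 Affymetrix array, with signals on a log2 scale. Both kinds of culture carried Pdx-1Cre, a driver of Cre recombination in cells of the pancreatic lineage, and p53L/L, where L is the usual mark of a loxP-flanked allele. The 2 cultures of normal ductal cells (duct 1 and duct 2) had these alone. The 3 cultures of pancreatic ductal adenocarcinoma (PDAC 1, PDAC 2 and PDAC 3) also carried APCL/+, an altered allele of Apc, which codes for a scaffold in the destruction of beta-catenin. The title of duct 2 writes Pdx-1 without Cre and omits the word ductal, and the title of PDAC 3 alone adds the words mutant cell. A growth protocol that names PDAC cells for every sample gives 10% FBS and fewer than 6 passages. The labels call the cultures biological replicates without naming animals or clones, so the tests measure only the spread among these 5 cultures.

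Ribosome production starts in the nucleolus, where RNA polymerase I copies the ribosomal DNA into a long precursor RNA. Small nucleolar ribonucleoproteins (snoRNPs) modify this precursor, a large set of processing factors cuts and folds it, and separate assembly lines release the small and the large ribosomal subunit. Myc, bound to DNA as a pair with Max, is known as a transcription factor that drives many of these genes in growing and tumour cells, and Myc is itself a known target gene of beta-catenin in the gut.

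Apc, the gene altered in the PDAC cultures, read 9.23 and 9.02 in the ducts against 9.001, 9.06 and 8.58 in PDAC 1, 2 and 3, a log2 difference of -0.25 (SE 0.20, adjusted p = 0.590) by limma. Where its probes lie relative to the altered part is not given in the sources used here, so this does not check the genotype. PDAC 3 stood apart from the other tumour cultures in most of the 43 genes, and results are given with and without it. Markers of other cell types differed as well. Epithelial markers, 13 of 14 of them lower in PDAC 1, 2 and 3 than in either duct, had list means of 10.82 and 10.51 in the ducts against 6.22, 6.89 and 8.54 in PDAC 1, 2 and 3. Fibroblast markers, 4 of 14 of them higher in all tumour cultures, averaged 7.52 in duct 1, 9.83 in duct 2 and 9.32 to 9.75 in PDAC. Duct 2 had the highest means of acinar markers (7.05, elsewhere 5.23 to 5.41), islet markers (8.07, elsewhere 5.24 to 6.17), endothelial markers (6.81, elsewhere 5.20 to 5.76) and leukocyte markers (5.99, elsewhere 5.16 to 5.45). Of these lists 1 of 9 acinar (11.1%), 7 of 9 islet (77.8%), 5 of 9 endothelial (55.6%) and 4 of 9 leukocyte markers (44.4%) were lower in all tumour cultures. Of all genes 12.8% were lower and 13.6% higher in all tumour cultures than in both ducts, so the acinar count was near that share. The leukocyte gene Ptprc lay between 4.42 and 4.59 over the arrays, and the acinar factor Ptf1a between 4.68 and 4.79. Both were named outside the rule for naming genes, and other members of their lists moved more. Duct 2 was the highest for 7 of 9 leukocyte and 6 of 9 acinar markers. The log2 differences, PDAC minus duct, reached -2.66 in the leukocyte list and -3.18 in the acinar list. The part of these cells in the values of the ribosome genes was not tested, and in such bulk samples fewer cells of a type and less RNA per cell cannot be told apart. Array medians lay between 5.90 and 6.02, so a change of RNA per cell shared by all genes would not show in these values.

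The comparison of tumour with duct cultures asked whether the genes that build ribosomes differ between them. None of the 43 passed the test. The limma fit across all 19938 genes, with Benjamini-Hochberg adjustment, called 0 of the 43 at an adjusted p under 0.05, where it called 0.0552% of all genes, and the smallest adjusted p was 0.223. At an unadjusted p under 0.05, Polr1c and Wdr75 were higher (2 of 43, with 6.50% of all genes) and Mycl and Mycn lower (2 of 43, with 6.86% of all genes). Among the 9969 genes with a mean above the median, limma gave 1119 higher and 882 lower at that p. The groups did not overlap for 6 genes that stood higher in PDAC, or 14.0% against 13.6% of all genes, and for 3 that stood lower, or 6.98% against 12.8%. Since 42 of the 43 had a mean above the median of the array's genes, the shares among such genes, 23.0% higher and 17.1% lower, are the closer background. The median log2 difference of the 43, PDAC minus duct, was 0.10, with a range from -1.21 to 0.68, and that of all genes was 0.01. The share of higher genes thus lay near that of the whole array and below that of genes above the median level. That background starts at a mean of 6.61, while the 39 genes outside the Myc family and Max had means from 8.10 to 12.21, so it is not matched for signal.

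Myc itself lies on chromosome 15 from 61985341 to 61990361 in the GRCm38 assembly. Its log2 signal was 11.38 and 11.35 in duct 1 and 2 and 11.84, 11.38 and 10.48 in PDAC 1, 2 and 3. PDAC 1 was the highest and PDAC 3 the lowest of the 5, so the groups overlapped. The group means were 11.36 ± 0.02 (SD, n = 2) and 11.23 ± 0.69 (SD, n = 3), a log2 difference of -0.13 (SE 0.45, adjusted p = 0.926) by limma. Without PDAC 3 the difference was 0.24 (SE 0.20), which turned its direction.

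Max, which Myc needs to bind DNA, was also highest in PDAC 1 and lowest in PDAC 3. It read 9.09 and 9.21 in the ducts against 9.57, 9.13 and 8.74 in PDAC 1, 2 and 3. The log2 difference was -0.0067 (SE 0.28), and 0.19 (SE 0.20) without PDAC 3.

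The relatives of Myc had their highest tumour value in PDAC 3, though it too lay below both ducts. Mycl, on chromosome 4 from 122995588 to 123002490 and first known from lung cancer, read 6.82 and 6.76 in the ducts against 5.89, 5.85 and 6.29 in PDAC 1, 2 and 3. All tumour values lay below both duct values. Its log2 difference of -0.78 (SE 0.16, adjusted p = 0.223), a fold of 1.72, had the smallest adjusted p of the 43 genes by limma. Mycl also had the lowest mean signal of the 43, 6.32, below the median of 6.61 over the array's genes. Mycn, on chromosome 12 from 12936093 to 12941836 and known from neuroblastoma, read 6.95 and 7.84 in the ducts against 5.90, 6.03 and 6.63 in PDAC 1, 2 and 3. Here too the groups did not overlap, though duct 1 and duct 2 lay further from each other than duct 1 from PDAC 3. The log2 difference was -1.21 (SE 0.39, adjusted p = 0.340) by limma, a fold of 2.32. The mean signal of Mycn was near that median as well, above that of 50.8% of the array's genes. For both relatives PDAC 3 was the tumour culture closest to the ducts, while for Myc and Max it was the lowest of all. Duct 2, where islet markers were highest, also had the highest Mycn, and the part of such cells was not tested.

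**Figure D1:**
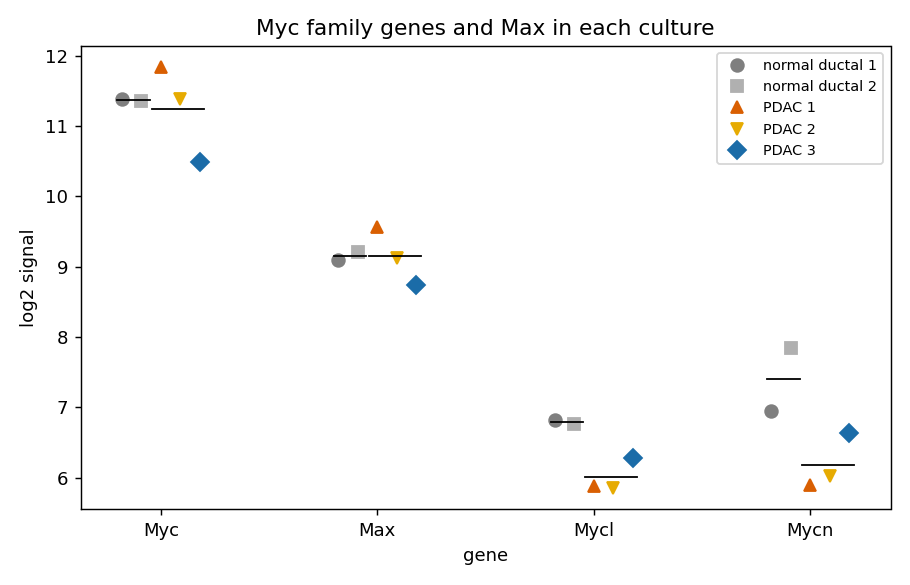
Log2 signal (vertical axis) of Myc, Max, Mycl and Mycn in each of the 5 cultures, with horizontal lines at the group means. Signals of different genes come from different probes and are not to be compared. Myc and Max are lowest in PDAC replicate 3 (10.48 and 8.74), whereas Mycl and Mycn are lower in all PDAC cultures than in the normal ductal ones.

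RNA polymerase I, the enzyme that transcribes ribosomal DNA, was measured through 4 subunits, and all 4 stood above both ducts in PDAC 1 and PDAC 2. Polr1c, a subunit shared with RNA polymerase III, read 9.42 and 9.58 in the ducts against 10.12, 9.83 and 9.87 in PDAC 1, 2 and 3. With no overlap, its log2 difference was 0.44 (SE 0.13, adjusted p = 0.315) by limma. Polr1b, a catalytic core subunit, read 8.95 and 8.74 in the ducts against 9.68, 9.46 and 8.96 in the tumour cultures, so PDAC 3 lay just above duct 1. Its log2 difference was 0.52 (SE 0.26, adjusted p = 0.526). The largest subunit, Polr1a, read 9.60 and 9.60 in the ducts against 10.30, 10.02 and 9.12 in the tumour cultures, which puts PDAC 3 below all others. Its difference was 0.21 (SE 0.41, adjusted p = 0.830). Polr1e, part of a module particular to this polymerase, read 8.64 and 8.59 in the ducts against 8.75, 8.92 and 8.58 in the tumour cultures, a difference of 0.13 (SE 0.13, adjusted p = 0.660).

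The snoRNP proteins showed a like order. Among the proteins of box C/D particles, which methylate ribosomal RNA, Nop56 read 12.08 and 11.86 in the ducts against 12.58, 12.46 and 12.07 in PDAC 1, 2 and 3. The enzyme of these particles, fibrillarin (Fbl), read 9.21 and 9.43 in the ducts against 9.68, 9.65 and 9.38 in the tumour cultures. For both genes PDAC 3 lay among the duct values and the other tumour cultures above them. The log2 difference of Nop56 was 0.40 (SE 0.19, adjusted p = 0.511) by limma. That of Fbl was 0.25 (SE 0.14, adjusted p = 0.550). Nop58, the partner of Nop56, read 11.39 and 11.40 in the ducts against 11.47, 11.49 and 10.83 in the tumour cultures. Its difference was -0.13 (SE 0.25, adjusted p = 0.831), and 0.089 (SE 0.039) without PDAC 3.

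Box H/ACA particles turn uridine into pseudouridine. Their enzyme dyskerin (Dkc1), on chromosome X from 75095854 to 75109776, read 10.30 and 10.41 in the ducts against 10.98, 11.17 and 10.53 in PDAC 1, 2 and 3. The groups did not overlap, and PDAC 3 was again the tumour culture nearest to the ducts. The log2 difference was 0.54 (SE 0.22, adjusted p = 0.442) by limma. Gar1, a core protein of the same particles, read 9.80 and 9.70 in the ducts against 10.05, 10.39 and 9.42 in the tumour cultures, a difference of 0.20 (SE 0.33, adjusted p = 0.789). Without PDAC 2 the difference of Gar1 was -0.015. Nhp2, the remaining core protein measured, was an exception with little spread, at 9.71 and 9.88 in the ducts against 9.74, 9.61 and 9.74 in the tumour cultures and a difference of -0.096 (SE 0.097, adjusted p = 0.671).

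Of the 5 general nucleolar proteins, Nolc1, a chaperone of snoRNPs, was the 1 whose groups did not overlap. It read 10.05 and 9.80 in the ducts against 10.49, 10.39 and 10.15 in PDAC 1, 2 and 3, a log2 difference of 0.42 (SE 0.15, adjusted p = 0.377) by limma. Gnl3 (nucleostemin), a GTPase of dividing cells, read 10.25 and 10.39 in the ducts against 10.77, 10.47 and 10.02 in the tumour cultures, a difference of 0.098 (SE 0.26, adjusted p = 0.888) that was -0.078 without PDAC 1. Ddx21, an RNA helicase that couples transcription with processing, read 10.51 and 10.77 in the ducts against 10.65, 10.62 and 10.06 in the tumour cultures, a difference of -0.20 (SE 0.24, adjusted p = 0.710). In both of these PDAC 3 was the lowest of the 5 cultures. Nucleolin (Ncl), like Myc, was highest in PDAC 1 and lowest in PDAC 3, with 11.93 and 11.95 in the ducts against 12.23, 11.95 and 11.61 in the tumour cultures. Nucleophosmin (Npm1), a histone chaperone of the nucleolus, was lowest in duct 1, with 11.14 and 11.54 in the ducts against 11.57, 11.41 and 11.24 in the tumour cultures.

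The 13 factors of small subunit processing had a median log2 difference of 0.04, with 2 higher and 1 lower in all tumour cultures (15.4% and 7.69%, against 23.0% and 17.1% of genes above the median level). Wdr75, a protein of the early transcription-coupled complex, read 10.04 and 9.99 in the ducts against 10.53, 10.36 and 10.25 in PDAC 1, 2 and 3. Its log2 difference of 0.37 (SE 0.11, adjusted p = 0.313) by limma came without overlap. Noc4l, a partner of Nop14 in the processome, read 9.05 and 9.01 in the ducts against 9.26, 9.12 and 9.12 in the tumour cultures, a difference of 0.13 (SE 0.083, adjusted p = 0.550). Both genes varied little, with all tumour values above the ducts. Bysl (bystin), which binds the precursor of the small subunit, read 8.86 and 9.09 in the ducts against 9.46, 9.36 and 9.05 in the tumour cultures, a difference of 0.32 (SE 0.17, adjusted p = 0.550).

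Utp20, a large scaffold of the small subunit processome, was the gene of this role that stood lower. It read 9.46 and 9.57 in the ducts against 9.41, 9.30 and 8.54 in PDAC 1, 2 and 3, a log2 difference of -0.43 (SE 0.32, adjusted p = 0.565) by limma that was -0.16 (SE 0.09) without PDAC 3. No other of the 43 genes lay as far below the duct mean in PDAC 3 as Utp20 (-0.97). Nol10 had the widest range within PDAC of all 43 genes, with 8.71 and 8.73 in the ducts against 9.46, 9.50 and 7.997 in the tumour cultures. PDAC 1 and PDAC 2 lay above and PDAC 3 below the ducts by more than the ducts lay from each other. The log2 differences of the other 8 factors (Nop14, Nol6, Wdr43, Utp15, Utp18, Rrp9, Rrp12 and Ddx10) ran from -0.10 to 0.34.

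The 11 factors of large subunit processing had a median log2 difference of 0.13, and none of them separated the groups. Rrp1b, a nucleolar protein with the largest positive difference of the 43 genes, read 8.98 and 8.53 in the ducts against 9.88, 9.58 and 8.83 in PDAC 1, 2 and 3, a difference of 0.68 (SE 0.39, adjusted p = 0.550) by limma. PDAC 3 lay between its duct values. Mrto4, which holds the place of the ribosomal stalk protein during assembly, read 9.12 and 9.18 in the ducts against 9.54, 9.61 and 9.13 in the tumour cultures, a difference of 0.28 (SE 0.18, adjusted p = 0.550). A further probe set of Mrto4 gave 0.31. For Fbl and Wdr12 the further probe sets gave 0.11 and 0.08, against 0.25 and 0.13 from those used. Noc3l, which acts in the export of the large subunit precursor from the nucleolus, read 9.41 and 9.41 in the ducts against 9.41, 9.59 and 9.05 in the tumour cultures. Its difference was -0.058 (SE 0.19, adjusted p = 0.920), and 0.092 (SE 0.098) without PDAC 3.

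Bop1, Pes1 and Wdr12 together form the PeBoW complex, which large subunit maturation needs. Bop1 read 9.71 and 9.27 in the ducts against 10.06, 10.05 and 9.53 in PDAC 1, 2 and 3, a log2 difference of 0.39 (SE 0.25, adjusted p = 0.550) by limma. Pes1 read 10.43 and 10.56 in the ducts against 10.81, 10.64 and 10.50 in the tumour cultures. Wdr12 read 9.52 and 9.56 in the ducts against 9.99, 9.69 and 9.34 in the tumour cultures. All 3 subunits thus stood above both ducts in PDAC 1 and PDAC 2, while in PDAC 3 Bop1 and Pes1 lay between the ducts and Wdr12 below them. Nop2, an rRNA methyltransferase known as a proliferation antigen, had the widest tumour range of this role, with 10.58 and 10.38 in the ducts against 11.31, 11.13 and 10.07 in the tumour cultures. The log2 differences of the others (Nop16, Nol9, Rrs1 and Ebna1bp2) ran from -0.05 to 0.10.

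**Figure D2:**
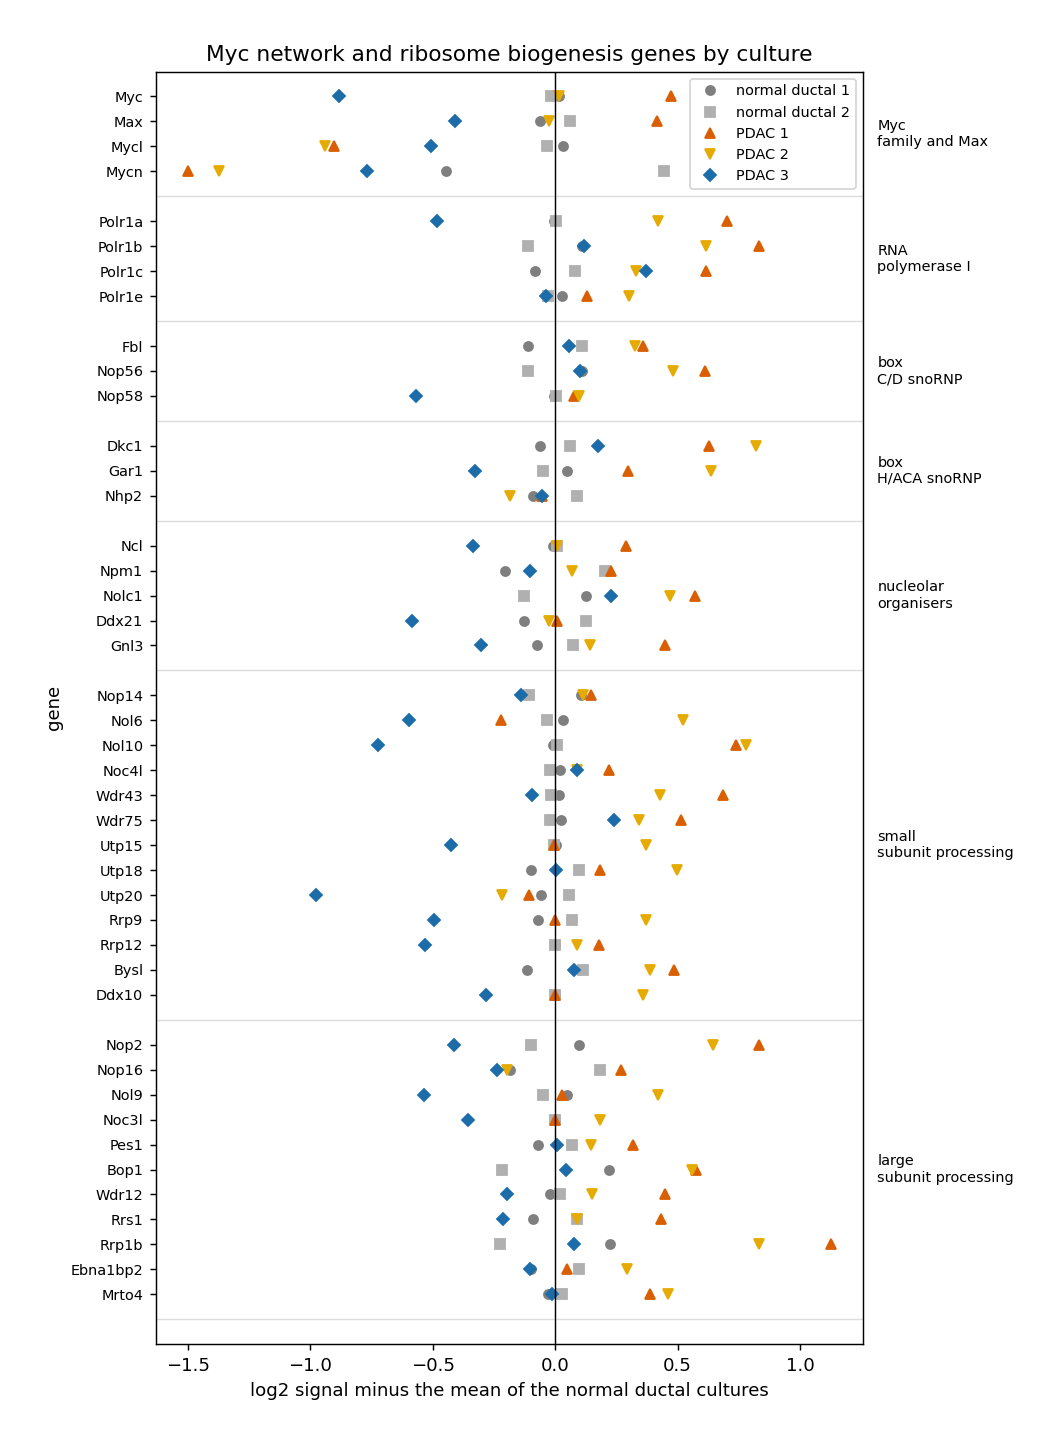
Difference of the log2 signal from the mean of the normal ductal cultures (horizontal axis) for the 43 genes, grouped by role, with 1 point per culture. PDAC replicates 1 and 2 (triangles) lie to the right of both normal ductal points for 31 and 32 of the 43 genes, and PDAC replicate 3 (diamonds) to the left for 27.

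In these genes PDAC 3 lay apart from the other tumour cultures, with a median of 0.50 for PDAC 1 minus PDAC 3 and of 0.10 for PDAC 1 minus PDAC 2. The median difference of the 43 from the duct mean was 0.30 in PDAC 1, 0.33 in PDAC 2 and -0.21 in PDAC 3. Genes of the array with a mean above the median had 0.04, 0.09 and 0.01 in the same cultures. The median SD of a gene within PDAC was 0.32 for the 43 and 0.22 for that background, while the median gap between the ducts was 0.12 for the 43 and 0.20 for the background. By this median the ducts lay closer to each other in the 43 genes than in the background, with the widest gap at Mycn (6.95 and 7.84).

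Counted gene by gene, PDAC 1 lay above both ducts for 31 of the 43 (72.1%, against 42.8% of genes above the median level) and PDAC 2 for 32 (74.4% against 47.6%). PDAC 3 lay below both for 27 (62.8% against 37.9%). It was below both other tumour cultures for 38 of the 43 (88.4% against 40.9%), the exceptions being Mycl, Mycn, Polr1c, Nhp2 and Noc4l. Of all 5 cultures it was the lowest for 25 genes (58.1% against 22.6%) and the highest for 0. PDAC 1 was the highest for 24 (55.8% against 20.1%). These counts describe 3 cultures, were chosen after the values were seen, and carry no test.

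**Figure D3:**
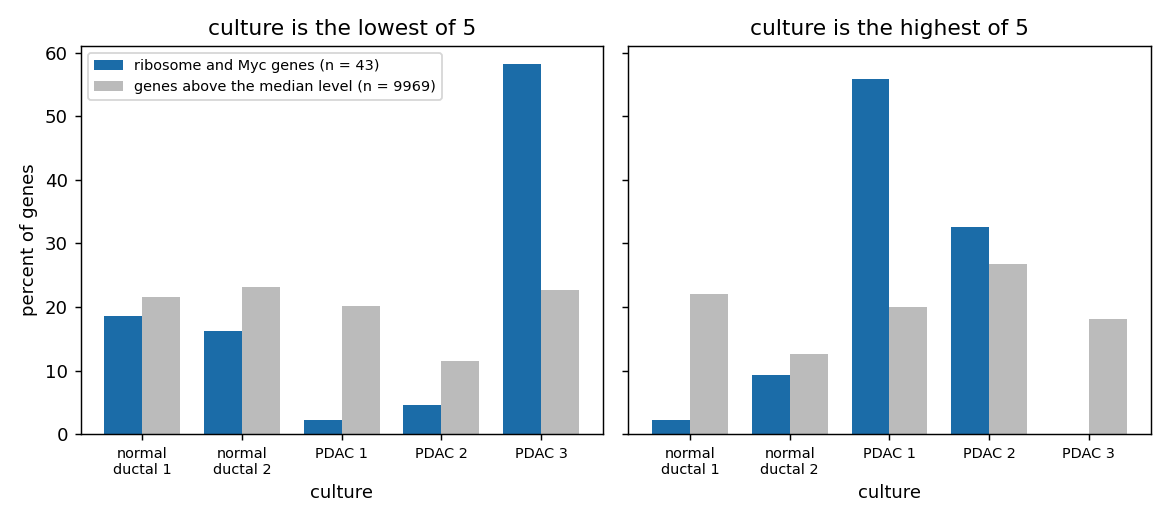
Percent of genes (vertical axis, from 0) for which each culture was the lowest (left) or the highest (right) of the 5, for the 43 genes and for all genes with a mean above the median. PDAC replicate 3 is the lowest for 58.1% of the 43 genes and 22.6% of the background, and PDAC replicate 1 the highest for 55.8% and 20.1%.

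Without PDAC 3 the comparison of the groups read differently. The median log2 difference of the 43 genes was 0.23, and 25 of them were higher in PDAC 1 and PDAC 2 than in both ducts, 58.1% against 20.1% of all genes and 33.5% of genes above the median level. All 4 polymerase I subunits, all 3 box C/D proteins, 2 of 3 box H/ACA proteins, 2 of 5 general nucleolar proteins, 8 of 13 small subunit and 6 of 11 large subunit factors made up the 25. The count that stood lower was 3 (6.98%, against 17.0% of all genes and 22.0% of those above the median level). By limma 12 were higher at an unadjusted p under 0.05 (27.9% against 7.10% of all genes) and 2 were lower (6.70% of all genes), and 0 of the 43 had an adjusted p under 0.05. PDAC 3 was singled out by its low values in these same 43 genes, so the larger counts follow in part from that choice. The p-values without it are a description of 4 cultures and add no separate support. Among the higher genes Nol10 had the smallest adjusted p, with 0.76 (SE 0.066, adjusted p = 0.164), followed by Dkc1 with 0.72 (SE 0.11, adjusted p = 0.213) and Nop2 with 0.74 (SE 0.12, adjusted p = 0.233). Mycl had -0.92 (SE 0.05, adjusted p = 0.137). The median of the 43 was -0.01 without PDAC 1 and 0.05 without PDAC 2, with 6 genes higher without overlap in each case, and without duct 2 that count was 12.

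In PDAC 3, where most of the 43 genes were lowest among the tumour cultures, the epithelial marker mean was the highest of these cultures. It was 8.54 in PDAC 3 against 6.22 and 6.89 in PDAC 1 and PDAC 2. Proliferation markers showed no such gap. Of 19 measured, 17 were higher in all tumour cultures than in both ducts (89.5%, against 23.0% of genes above the median level), and their median differences from the duct mean were 0.61, 0.75 and 0.55 in PDAC 1, 2 and 3. Mcm4, a subunit of the replicative helicase, read 9.54 and 9.44 in the ducts against 10.07, 10.16 and 10.10 in the tumour cultures, a difference of 0.62 (SE 0.074, adjusted p = 0.156) by limma. The part of either marker list in the ribosome results was not tested.

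Further genes of the pathway were taken from lists by role. Their counts without overlap are read against the 23.0% higher and 17.1% lower of genes above the median level, and without PDAC 3 against 33.5% higher. No test compared the lists with each other or with that background. Counts before adjustment, at an unadjusted p under 0.05, are set beside all genes. Among the 9969 genes above the median level they were 1119 higher and 882 lower. Of 46 other small subunit factors, 12 were higher and 1 lower without overlap (26.1% and 2.17%, so the higher share was near that background), and 33 were higher without PDAC 3 (71.7% against 33.5%). PDAC 3 lay below both ducts for 26 of the 46 (56.5%, against 37.9% of genes above the median level). By limma 4 were higher and 0 lower before adjustment, at p under 0.05 (8.70% higher, against 6.50% of all genes), and 0 were called after it. That higher share lay below the 1119 of 9969 among genes above the median level. Tsr3, which modifies a base of the small subunit rRNA, had a log2 difference of 0.56 (SE 0.13, adjusted p = 0.253). The processome scaffold Wdr46 had 0.61 (SE 0.16, adjusted p = 0.287). Tsr2, a chaperone of a small subunit protein, had 0.89 (SE 0.26, adjusted p = 0.309). In all 3 every tumour value, that of PDAC 3 included, lay above the ducts.

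A list of large subunit factors outside the 43 had 50 measured genes. It also names Nop10, Naf1, Shq1 and Nopchap1, which belong to snoRNPs or their assembly. Of the 50, 4 were higher and 6 lower without overlap, both shares below the 23.0% and 17.1% of genes above the median level. The higher count was 14 with a common array median, 9 without duct 1, 7 without duct 2 and 22 without PDAC 3 (44.0% against 33.5%). PDAC 3 lay below both ducts for 34 (68.0%, against 37.9% of genes above the median level). The 3 with the smallest p were all lower and were the ones under 0.05 before adjustment, with 0 called by limma after it. That count, 3 of 50, was a share below the 6.86% of all genes and the 882 of 9969 above the median level. Las1l, part of the nuclease that cuts the spacer between the large subunit rRNAs, read 9.81 and 10.24 in the ducts against 8.97, 9.42 and 9.18 in the tumour cultures, a difference of -0.84 (SE 0.21, adjusted p = 0.280). Nop53, which brings the exosome to the same precursor, had -0.61 (SE 0.19, adjusted p = 0.337). Eif6, which keeps the subunits apart until the large one is mature, had -0.37 (SE 0.13, adjusted p = 0.365). For each of them all tumour values lay below both ducts.

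Among 21 other RNA polymerase I factors 5 were higher and 2 lower without overlap (23.8% and 9.52%, against 23.0% and 17.1% of genes above the median level), so the higher share was that of the background. Before adjustment limma gave 4 higher and 2 lower (19.0% and 9.52%, against 6.50% and 6.86% of all genes), with 0 called after it. Of the 21, 20 lay above the median level, where 1119 of 9969 genes were higher and 882 lower at that p. The higher count without overlap was 8 with a common array median or without duct 1, and 10 without PDAC 3 (47.6% against 33.5%). Znrd1, a small subunit of the polymerase, read 6.79 and 7.24 in the ducts against 8.15, 8.20 and 7.85 in the tumour cultures, a difference of 1.05 (SE 0.20, adjusted p = 0.211). Polr2f, a subunit shared by the nuclear RNA polymerases, had 0.53 (SE 0.14, adjusted p = 0.289). Baz2a, part of a complex that silences ribosomal DNA, had -0.57 (SE 0.13, adjusted p = 0.239), lower in every tumour culture. RNA polymerase III genes, which make transfer RNA and the smallest ribosomal RNA, had 5 of 20 higher and 5 lower without overlap, against 23.0% and 17.1% of genes above the median level (9 higher with a common array median). By limma 1 of the 20 was higher and 2 were lower before adjustment, against 6.50% and 6.86% of all genes, and 0 were called. The leading genes were Gtf3c1 with -0.35 (SE 0.097, adjusted p = 0.303), Gtf3a with 0.43 (SE 0.12, adjusted p = 0.309) and Polr3e with -0.53 (SE 0.19, adjusted p = 0.371), a polymerase subunit and transcription factors of this enzyme.

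The proteins of the finished ribosome did not show the low values of PDAC 3. The 54 cytosolic ribosomal protein genes, many of which have processed copies in the genome that probes can share, had median differences from the duct mean of 0.00, 0.08 and 0.10 in PDAC 1, 2 and 3, and 28 of them lay above both ducts in PDAC 3 (51.9%, against 38.6% of genes above the median level). Over the groups 13 were higher and 3 lower without overlap (24.1% and 5.56%), the higher share being near the 23.0% of genes above the median level. That count was 21 under a common array median and 31 without duct 2. By limma 6 were higher and 0 lower before adjustment (11.1% higher, against 6.50% of all genes), and 0 were called. That higher share was near the 1119 of 9969 among genes above the median level. Rpl10a had 0.21 (SE 0.044, adjusted p = 0.223), Rpl8 had 0.48 (SE 0.11, adjusted p = 0.253) and Rps28 had 0.61 (SE 0.16, adjusted p = 0.288), all proteins of the cytosolic subunits.

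Myc targets outside the ribosome had their smallest median in PDAC 3 as well, but above the ducts. Of 37 measured, 16 were higher and 1 lower without overlap (43.2% and 2.70%, against 23.0% and 17.1% of genes above the median level), and 25 were higher without PDAC 3 (67.6% against 33.5%). Before adjustment limma gave 5 higher and 0 lower (13.5% higher, against 6.50% of all genes), with 0 called after it. Of the 37, 36 lay above the median level, and the higher share was closer to the 1119 of 9969 among such genes. The median differences of the 37 from the duct mean were 0.37, 0.29 and 0.12 in PDAC 1, 2 and 3. Eif4e, the cap-binding translation factor, had 0.71 (SE 0.21, adjusted p = 0.313). The transport GTPase Ran had 0.51 (SE 0.15, adjusted p = 0.318). Paics, an enzyme of purine synthesis, had 0.43 (SE 0.15, adjusted p = 0.359), and was highest in PDAC 3.

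Among 23 antagonists and cofactors of Myc, 7 were higher and 2 lower without overlap (30.4% and 8.70%, against 23.0% and 17.1% of genes above the median level). Before adjustment limma gave 4 higher and 0 lower (17.4% higher, against 6.50% of all genes), with 0 called after it. Of the 23, 22 lay above the median level, where 1119 of 9969 genes were higher at that p. Skp2, a ubiquitin ligase component that acts on Myc and on cell cycle inhibitors, read 8.31 and 8.42 in the ducts against 10.10, 9.95 and 9.48 in the tumour cultures, a difference of 1.48 (SE 0.22, adjusted p = 0.173). Cip2a, a phosphatase inhibitor that stabilises Myc protein, had 0.59 (SE 0.11, adjusted p = 0.199), and the mitotic kinase Aurka had 0.42 (SE 0.086, adjusted p = 0.218). All 3 are also genes of dividing cells, and for all 3 every tumour value lay above the ducts.

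**Figure D4:**
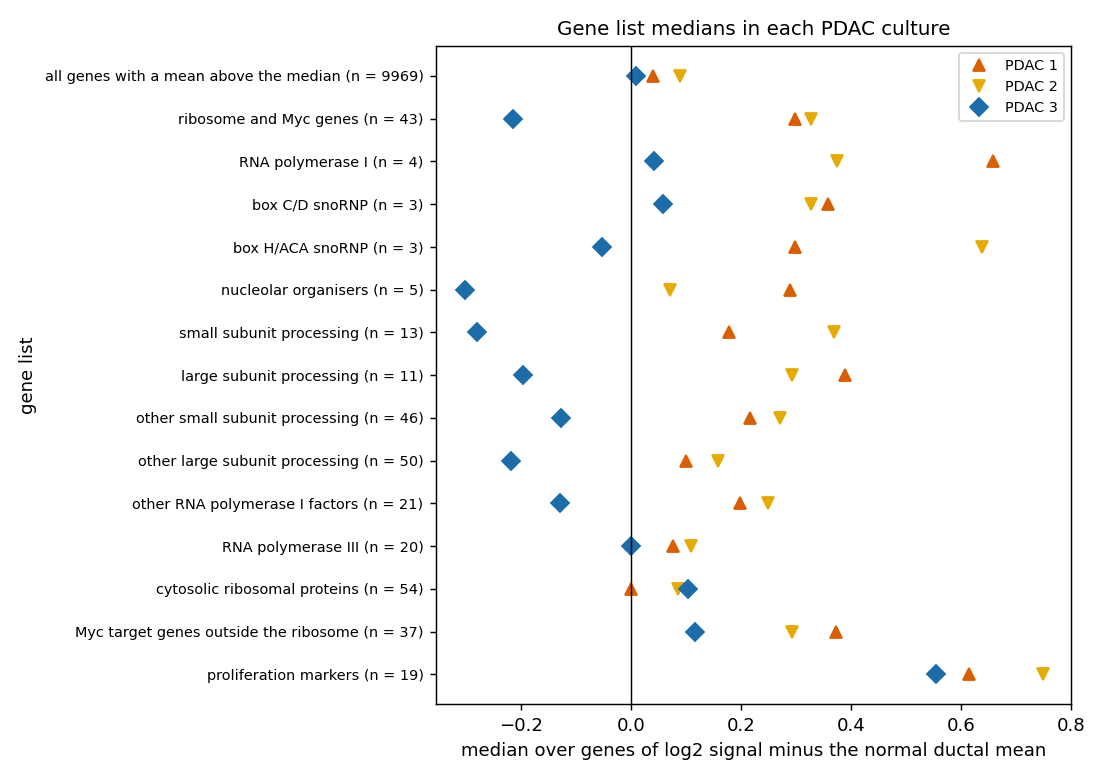
Median over the genes of each list of the difference from the normal ductal mean (horizontal axis, log2), with 1 point per PDAC culture and the number of genes in brackets. The diamond of PDAC replicate 3 lies left of the triangles for each list of processing factors and at -0.21 for the 43 genes, but at 0.10 for ribosomal proteins and at 0.55 for proliferation markers.

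The promoters of the 43 genes were searched for the E-box that Myc and Max bind, as a description with no test. RefSeq start sites of the GRCm38.p6 assembly gave promoter windows, from 250 bases before to 50 after the start, for 36 of the 43 genes (40 windows). The letters CACGTG, which read the same on both strands, were found for 6 genes (16.7%), against 8.09% of the 27025 genes with a window and 12.4% of the 8060 measured genes with a mean above the median. By window the share was 15.0% against 7.15% of all 32851. The related letters CACGCG, on either strand, were found for 11 genes (30.6% against 10.5% of all genes and 21.2% of those above the median level). Base composition differed between these groups, with 59.6% G and C in the windows of the 36 genes, 53.8% in all windows and 61.4% in those of genes above the median level. The share of genes with CACGTG was 34.3% for Myc targets outside the ribosome, 28.6% for RNA polymerase III and 26.3% for other small subunit factors. It was 19.5% for other large subunit factors and 18.2% for antagonists and cofactors of Myc. Other RNA polymerase I factors had 16.7%, ribosomal proteins 11.6% and proliferation markers 6.25%. The E-box was thus not particular to the 43 genes.

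The matches are shown with up to 12 bases on each side, 5′ to 3′ on the strand of the gene and with the E-box in capitals, because these are the letters a Myc and Max pair is known to bind. Positions count from the start site in the table. The match of Nop2 begins 60 bases, that of Utp18 20 bases and that of Max 3 bases before the start. The matches of Pes1, Wdr43 and Utp20 begin at bases 3, 18 and 38 of the transcript.

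Max, chr12:76962234-76962263, minus strand: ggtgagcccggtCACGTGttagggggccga
Nop2, chr6:125131811-125131840, plus strand: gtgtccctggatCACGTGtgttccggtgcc
Utp18, chr11:93885769-93885798, minus strand: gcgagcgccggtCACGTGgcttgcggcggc
Pes1, chr11:3963965-3963994, plus strand: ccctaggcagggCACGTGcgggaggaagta
Wdr43, chr17:71616220-71616249, plus strand: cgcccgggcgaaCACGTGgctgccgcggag
Utp20, chr10:88826765-88826789, minus strand: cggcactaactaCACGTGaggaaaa

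PDAC 1 exceeded PDAC 3 by a median of 0.80 for the 6 genes with CACGTG and by 0.44 for the 30 without, and the median log2 differences between the groups were 0.19 and 0.11. PDAC 3 minus the duct mean had nearly equal medians, -0.25 with and -0.22 without CACGTG. These splits carry no test. Max, Nop2, Wdr43 and Utp20 were lowest in PDAC 3, while Utp18 and Pes1 were lowest in duct 1. A match is a run of letters, and binding was not measured here.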

How the data were processed

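The authors deposited a table of log2 signals for 35556 probe sets on 5 arrays. That the scale is log2 follows from its range (0.727 to 13.9). The submitters' processing notes name Transcriptome Analysis Console 1.0.0.234 and mm10, and the sources used here give neither normalization nor probe summary. Probe sets with several symbols (1621) or none here (12146) were left out. Differences were tested with limma 3.58.1 (R 4.3.3; lmFit, eBayes with an intensity trend, two-sided, 3 residual and 0.91 prior degrees of freedom, Benjamini-Hochberg adjustment over 19938 genes, threshold 0.05), a fit first tested on simulated data. "Without overlap" means that all PDAC values lie on 1 side of both normal ductal values. Python 3.11.15 with pandas 2.3.3, numpy 2.4.6 and matplotlib 3.10.9 made tables and figures.

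Genes and lists were chosen with earlier results of these data known. The text names Max and the Myc family, in each other role the 3 genes with the smallest p and the leading gene of opposite sign to the role's median, and in each further list the 3 with the smallest p (for proliferation, Mcm4 of these). Polr1a, Ncl, Npm1, Nol10, Nop2, Pes1 and Wdr12 were named after their values were seen. Ptprc and Ptf1a were also named outside this rule. Of the 43 genes 9 held equal values on some arrays (20.9%, against 21.2% of genes above the median level). Alternatives were other scalings, filters, variance models, array weights, the mean of probe sets, the replicate number as a block and each culture left out. The count of genes lowest in PDAC replicate 3 was added after seeing the data.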

Additional observations from a re-analysis of the deposited data

How the results depend on the processing

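Under each of 14 alternatives limma called 0 of the 43 genes, and 18 of the 24 named genes kept their direction in all that were run. Over all genes the count called was 11. It was 41 with quantile normalization, 33 with a common array median, 42 among the genes above the median level alone, 3 with array weights and 0 with the replicate block. With a culture left out it ran from 0 to 1287, with 1287 without normal ductal replicate 1, 990 without normal ductal replicate 2 and 0 without any of the PDAC cultures. Of the 43 genes, those higher without overlap were 13 with a common array median and 6 to 25 with a culture left out, and those lower were 3 to 5 (5 without normal ductal replicate 1). At an unadjusted p under 0.05 those higher were 0 with quantile normalization, 5 with a common array median, 10 with the replicate block and 0 to 12 with a culture left out (0 without either normal ductal culture). Those lower were 1 among genes above the median level and 0 to 2 with a culture left out (0 without normal ductal replicate 2).

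The replicate block gives PDAC replicate 3 no partner and so no weight. Same-numbered cultures did not deviate together (correlations -0.18 and -0.042), and the labels tie no cultures to each other. With the replicate block the log2 difference turned for Myc (0.24), Max (0.19), Nop58 (0.089) and Noc3l (0.092). Array weights turned Myc (0.0021) and Max (0.065), and a common array median Max (0.077) and Noc3l (0.026). With a culture left out, Myc ran from -0.43 to 0.24, Max from -0.22 to 0.19, Nop58 from -0.24 to 0.089, Gar1 from -0.015 to 0.47, Gnl3 from -0.078 to 0.30 and Noc3l from -0.18 to 0.092. The causes were not tested. The count of genes lowest in PDAC replicate 3 was 25 as deposited, 23 with quantile normalization, 20 with a common array median and 25 to 31 with another culture left out. A common array median moved the median difference from the normal ductal mean of all genes to 0.060, 0.11 and 0.086 in PDAC replicates 1, 2 and 3, and that of the 43 genes to 0.36, 0.43 and -0.13. The number of arrays limits the precision of all values.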
